A study of Homo sapiens with 12 samples.

Results

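Dam-LaminB1 stabilised with Shield1 in HT1080 cells that also carried the VP16 tracer was compared with the VP16 tracer alone, using 4 of the 12 RNA libraries of the series. HT1080 is a human fibrosarcoma cell line. The group VP16_tracer_Dam (2 libraries) had 3 days with doxycycline and then 24 h without it and with 500 nM Shield1. The group VP16_tracer (2 libraries) had the same doxycycline schedule and no Shield1. Uninduced cells of the clone (VP16_uninduced, 2 libraries), kept for 4 days with doxycycline, entered the fit to help estimate the spread. The same 3 groups of a clone with the GFP tracer were used only to set the response beside that of a second clone. Each tracer is represented by 1 clone, and no group received Shield1 without Dam-LaminB1 being induced, so the effects of Shield1 itself and of the fusion cannot be told apart.

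The members are the libraries that the labels name, matched through the sample number, and they form 2 pairs that share an index set (VP16_tracer_Dam 1 with VP16_tracer 1, and VP16_tracer_Dam 2 with VP16_tracer 2). The 4 libraries held between 21297256 and 24033306 counts. The series calls the libraries of a group biological replicates, and the labels say nothing more of how they were grown apart. Replicates of a group stood far apart: a chi-square statistic per degree of freedom was 27.9 between both VP16_tracer_Dam libraries and 22.7 between both VP16_tracer libraries, against 5.61 within the pair of set 1 and 1.9 within the pair of set 2. The first principal component of the 6 VP16 libraries held 62.2% of the variance and separated the index sets, and comparisons were therefore made within pairs.

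As background, lamin B1 is a filament protein under the inner nuclear membrane, where it contacts large gene-poor stretches of the genome called lamina-associated domains. Dam is a bacterial enzyme that methylates the adenine of GATC; fused to lamin B1 it marks DNA that comes close to the lamina. The m6A-Tracer is a fluorescent reader of that mark, and VP16 is a viral activation domain that recruits the transcription machinery, so the comparison asks whether placing an activator on lamina-contacting DNA changes transcript levels. Shield1 is a small molecule that keeps a destabilised fusion protein from being degraded and so acts on protein, not on RNA.

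LMNB1, the gene for lamin B1 (chr5:126112315-126172712; coordinates of genes are GRCh37, as deposited), had 120.9 and 174 CPM (read counts relative to the size of the library, scaled for its composition) in VP16_tracer_Dam, against 150.4 and 178 CPM in VP16_tracer. It was lower in both pairs, by very different amounts (log2 difference of -0.32 in set 1 and -0.03 in set 2), and did not pass the test (fitted log2 change -0.17 ± 0.07 SE; edgeR quasi-likelihood test, adjusted p = 0.526). FKBP1A, the immunophilin from which Shield1-responsive domains derive, had 216 and 212 CPM in VP16_tracer_Dam, against 222 and 207 CPM in VP16_tracer. Neither gene's RNA checks the labels, because the fusion is controlled at the protein.

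In the comparison as a whole, 13 of 16139 genes tested passed an adjusted p of 0.05 (0.0806%): 5 were higher with Dam-LaminB1 (0.031%) and 8 lower (0.0496%). The higher genes were BMF, KCNJ2, NOV, VCAN and MMP2, which encode a pro-death BCL2-family protein, a potassium channel and 3 secreted matrix or matrix-modifying proteins. The lower genes were H1F0, which encodes a linker histone, the replication genes MCM3, MCM5, MCM6 and E2F1, the kinase gene CDK14, CCDC144NL and the lincRNA AC091969.1. All 13 moved the same way in both pairs, and the libraries of both groups did not overlap for 10 of them, beside 20.1% of all genes tested; both counts describe genes that the test on the same libraries had picked. Changes were small: the largest fitted change among the called genes was 1.07 on the log2 scale (BMF) and the median standard error over all genes was 0.0875. An unadjusted p under 0.05 was found for 1546 genes (9.58%), where 807 would be given by chance. In a fit of all 12 libraries it was found for 195 genes, where 863 would be given by chance, so the excess depended on the fit.

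These calls rest on a model of the 6 VP16 libraries with index set as a block and 2 residual degrees of freedom. With all 12 libraries in the model no gene passed (195 genes at an unadjusted p under 0.05 with the block), and DESeq2 called 2 genes. The count also depended strongly on which VP16_tracer_Dam library was left out. All 13 genes kept their direction in each of these fits. They had moved the same way in both pairs and the fits reused the same libraries, so a kept direction adds little.

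**Figure D1:**
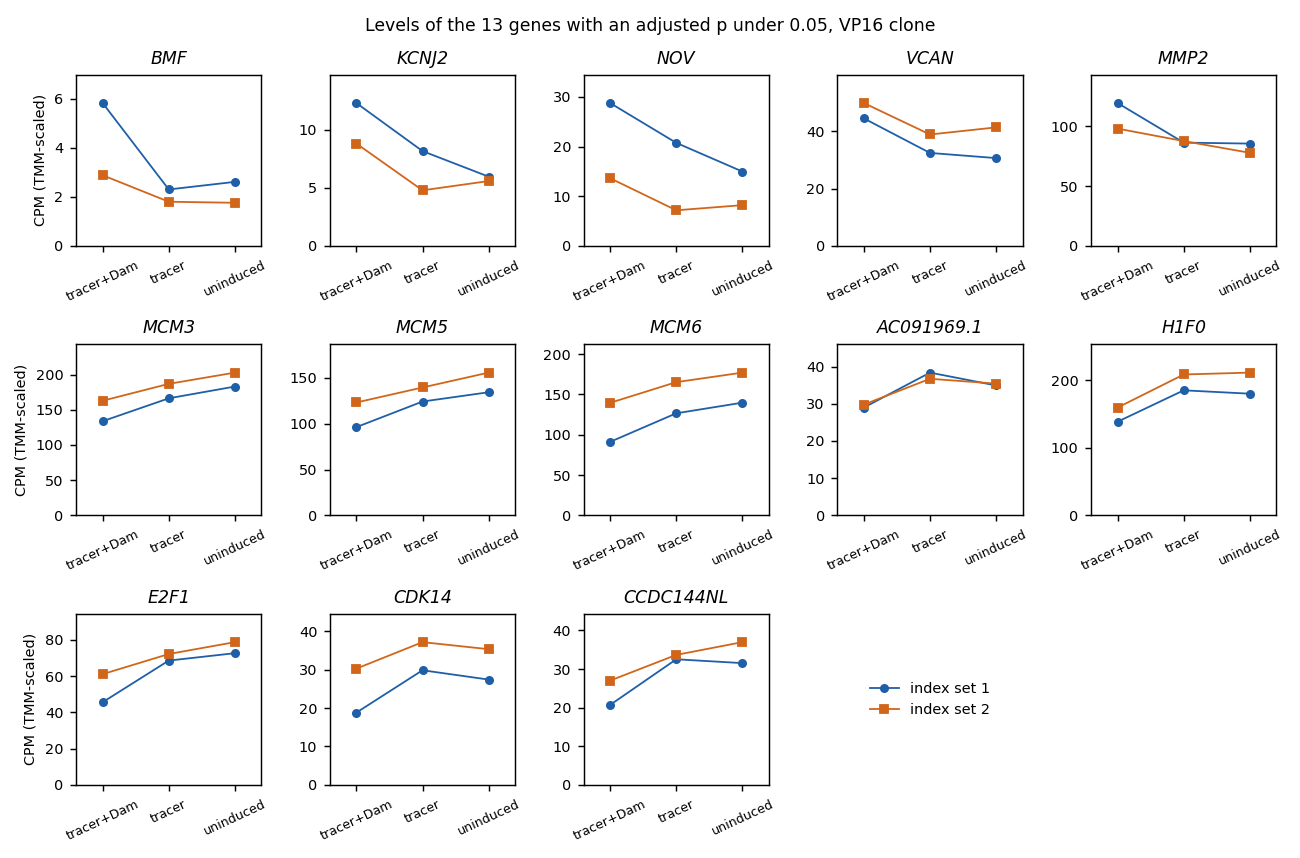
CPM of each of the 13 genes in the 6 VP16 libraries (vertical axes start at 0; tracer+Dam, tracer and uninduced from left to right; circles and squares are index sets 1 and 2, joined within a set, 1 library per point). Within each set the tracer+Dam point of BMF, KCNJ2, NOV, VCAN and MMP2 lies above the tracer point, and that of the other 8 genes below it.

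The promoters of the called genes, 5 higher and 8 lower, are shown because these genes passed the test and because GATC is the sequence Dam methylates. Of the 13 genes, 7 matched an entry of the RefSeq promoter table (GRCh38.p14; from 250 bases before to 50 after the gene's start), and those of the 6 largest changes are printed 5′ to 3′ in the direction of transcription. Capitals mark GATC, and also TTTNNCGC or its reverse complement GCGNNAAA, here called the E2F core. This is a loose form of the sequence bound by E2F factors, with any base accepted at each N, so some matches may not be bound. E2F factors drive genes of DNA replication. Matches on both strands can overlap. The windows are chr15:40106917-40107216 on the minus strand (BMF), chr17:70169282-70169581 on the plus strand (KCNJ2), chr5:83471494-83471793 on the plus strand (VCAN), chr7:90709566-90709865 on the plus strand (CDK14), chr20:33686336-33686635 on the minus strand (E2F1) and chr2:135876394-135876693 on the minus strand (MCM6).
BMF: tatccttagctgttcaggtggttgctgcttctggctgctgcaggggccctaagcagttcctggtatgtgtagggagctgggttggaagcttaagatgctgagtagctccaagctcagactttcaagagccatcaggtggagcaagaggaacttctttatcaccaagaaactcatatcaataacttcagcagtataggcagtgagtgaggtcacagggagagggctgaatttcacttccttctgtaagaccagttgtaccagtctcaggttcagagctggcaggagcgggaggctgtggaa
KCNJ2: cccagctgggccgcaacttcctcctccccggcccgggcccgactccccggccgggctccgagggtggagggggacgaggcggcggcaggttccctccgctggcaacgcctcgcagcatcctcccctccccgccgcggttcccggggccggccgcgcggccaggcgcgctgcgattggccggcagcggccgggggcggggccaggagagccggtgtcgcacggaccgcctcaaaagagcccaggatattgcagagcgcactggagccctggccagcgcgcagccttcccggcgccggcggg
VCAN: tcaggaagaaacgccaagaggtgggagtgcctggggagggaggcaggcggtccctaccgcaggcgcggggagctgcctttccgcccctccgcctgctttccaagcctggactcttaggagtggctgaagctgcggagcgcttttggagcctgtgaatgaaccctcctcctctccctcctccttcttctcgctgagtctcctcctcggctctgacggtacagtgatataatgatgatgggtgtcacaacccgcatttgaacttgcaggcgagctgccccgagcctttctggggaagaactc
CDK14: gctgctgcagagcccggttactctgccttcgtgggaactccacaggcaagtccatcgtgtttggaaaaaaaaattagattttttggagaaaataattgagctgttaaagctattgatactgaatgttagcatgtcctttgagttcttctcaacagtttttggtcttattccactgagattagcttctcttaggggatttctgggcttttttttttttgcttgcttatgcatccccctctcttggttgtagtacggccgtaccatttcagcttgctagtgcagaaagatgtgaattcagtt
E2F1: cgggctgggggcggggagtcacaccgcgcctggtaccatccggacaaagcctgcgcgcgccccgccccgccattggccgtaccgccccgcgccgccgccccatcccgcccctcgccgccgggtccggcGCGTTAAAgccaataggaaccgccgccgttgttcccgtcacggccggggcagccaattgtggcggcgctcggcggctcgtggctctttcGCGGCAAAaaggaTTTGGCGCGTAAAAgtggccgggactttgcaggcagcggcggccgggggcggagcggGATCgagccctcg
MCM6: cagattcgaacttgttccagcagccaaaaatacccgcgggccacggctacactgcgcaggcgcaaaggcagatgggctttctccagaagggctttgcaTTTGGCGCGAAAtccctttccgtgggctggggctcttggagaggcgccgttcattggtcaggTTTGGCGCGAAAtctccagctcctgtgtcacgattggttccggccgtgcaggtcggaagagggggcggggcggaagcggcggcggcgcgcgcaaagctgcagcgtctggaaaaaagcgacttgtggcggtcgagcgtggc
GATC occurred once in the window of E2F1 and in none of the windows of BMF, KCNJ2, VCAN, CDK14, MCM6 and MCM3, while 41.7% of all 35116 promoters of the table held it. The E2F core matched 4 times in the window of E2F1, 4 times in that of MCM6 and 3 times in that of MCM3, and in none of the windows of the other 4 genes. It was present in 6.89% of all promoters and in 9.83% of the 9637 promoters matched to genes tested. The search for the E2F core was added after the called genes were known.

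Genes of DNA replication were lower with Dam-LaminB1. MCM2 to MCM7 encode the hexameric helicase that unwinds DNA at replication origins, and E2F1 is a transcription factor that switches on genes of the G1/S transition. E2F1 (chr20:32263489-32274210) had 45.6 and 61.1 CPM in VP16_tracer_Dam, against 68.6 and 72.2 CPM in VP16_tracer. Every library with Dam-LaminB1 lay below every library without it. The fitted log2 change was -0.41 ± 0.07 (SE, edgeR adjusted p = 0.0268).

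MCM6 (chr2:136597196-136633996) had 91.1 and 139.5 CPM in VP16_tracer_Dam, against 126.5 and 165 CPM in VP16_tracer, so the groups overlapped although each pair fell; its log2 change was -0.35 ± 0.06 (edgeR adjusted p = 0.0166). MCM3 (chr6:52128807-52149582) had 134 and 163 CPM with Dam-LaminB1, against 166 and 187 CPM with the tracer alone (log2 change -0.26 ± 0.05, edgeR adjusted p = 0.0218). MCM5 (chr22:35796056-35820495) had 96.3 and 123 CPM with Dam-LaminB1, against 124 and 139.6 CPM with the tracer alone (log2 change -0.27 ± 0.05, edgeR adjusted p = 0.0218). The lowest tracer library of MCM5 and of MCM3 was only slightly above the highest Dam-LaminB1 library. The other helicase subunits did not pass: the fitted log2 changes were -0.20 for MCM2, -0.20 for MCM4 and -0.16 for MCM7 (edgeR adjusted p = 0.166, 0.113 and 0.246), each negative in both pairs.

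Over the list of 32 G1/S and replication genes, 4 were called lower and none higher, against 0.0806% of all genes called. At an unadjusted p under 0.05 by edgeR, 18 members were lower and none higher, beside 740 lower and 806 higher of all 16139 genes tested. In both pairs 23 members were lower and 1 was higher, beside 28.7% and 27.6% of all genes. The median log2 difference of the list was -0.27 in set 1 and -0.06 in set 2, and all genes had a median of -0.00 in both. Members with the lowest p after the called genes included POLA1, the catalytic subunit of the polymerase that primes replication (log2 differences of -0.50 and -0.15 in sets 1 and 2), CCNE2, a cyclin of the G1/S transition (-0.62 and -0.19), and UNG, a uracil-removing DNA repair enzyme (-0.37 and -0.11). The summed level of the list was 2784 and 3444 CPM in VP16_tracer_Dam, against 3329 and 3596 CPM in VP16_tracer and 3597 and 3859 CPM in VP16_uninduced, so it was lowest with Dam-LaminB1 in each set. In bulk RNA, fewer cells in S phase and less of these RNAs per cell cannot be told apart. The list of 30 G2/M genes, which act in mitosis, moved in opposite directions in the pairs (median -0.08 in set 1 and 0.03 in set 2), with 8 members lower and 3 higher in both.

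The E2F core lay in the promoters of 14 of the 28 G1/S genes that matched the promoter table, beside 947 of the 9637 genes tested that matched. The list was drawn up from genes known to peak at G1/S, many of them E2F targets, so this describes the list and not the response.

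In the GFP clone the same list was also lower, with a median of -0.64 in set 1 and -0.09 in set 2, and 20 of the 32 members were lower in all 4 pairs of both clones. The set 1 pair of the GFP clone was treated as outlying because of earlier results of these data. Its distance from the other libraries is not shown here, and its part in the median of set 1 was not tested. E2F1 had 23.7 and 71.6 CPM in GFP_tracer_Dam, against 45.4 and 86.8 CPM in GFP_tracer. No gene was called in the GFP clone: edgeR called 0 of 16772 (0%) and DESeq2 called 0. By edgeR 72 genes had an unadjusted p under 0.05, where 839 would be given by chance, and by DESeq2 12 had one. A test of the difference between the clones called 0 of 17262 genes with edgeR (0%) and 0 with DESeq2. An unadjusted p under 0.05 was found there for 122 genes by edgeR, where 863 would be given by chance, and for 23 by DESeq2. Of the 13 genes called in the VP16 clone, 9 moved in the same direction in both GFP pairs. The share of all genes that moved 1 way in all 4 pairs was not computed, for this count or for the 20 members above.

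MYC, a growth-promoting transcription factor, had log2 differences of -0.39 and -0.26 and lay just outside the threshold (edgeR adjusted p = 0.0521).

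H1F0 had the smallest p of all genes. It encodes the linker histone H1.0, which binds the DNA between nucleosomes and accumulates in cells that stop dividing. H1F0 (chr22:38201114-38203442) had 139 and 159.6 CPM in VP16_tracer_Dam, against 185 and 208 CPM in VP16_tracer and 180.03 and 211 CPM in VP16_uninduced. The groups did not overlap, and the 2 pairs gave nearly equal log2 differences of -0.42 and -0.39 (fitted -0.40 ± 0.04, edgeR adjusted p = 1.99e-05). In the GFP clone the log2 differences were 0.06 and -0.21.

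Replication-dependent histone genes, whose transcripts mostly lack a poly(A) tail and are sampled poorly by poly(A)-based libraries, had a median fitted log2 change of -0.20 over the 21 tested of 48. In both pairs 11 were lower and 3 higher, beside 28.7% and 27.6% of all genes, and none was called. HIST1H2AC had 45.6 and 15.4 CPM in VP16_tracer_Dam, against 56.2 and 19.9 CPM in VP16_tracer, and HIST1H2BK had 81.8 and 50.9 CPM, against 97.0 and 60.6 CPM. Each was lower within both pairs while the sets differed more than the groups (edgeR adjusted p = 0.0586 for each). Another list joined genes for H3K9 methylation, a mark of heterochromatin, with its readers and with the demethylases that remove it. Of its 21 genes tested none was called, and 6 were higher and 6 lower in both pairs. The members with the smallest p were CBX5, an HP1 protein that binds methylated H3K9 (log2 differences of 0.10 and 0.14, edgeR adjusted p = 0.348), and TRIM28, a co-repressor that recruits H3K9 methylation (-0.13 and -0.06, edgeR adjusted p = 0.458). Of the 15 nuclear lamina genes tested, none was called, 6 were lower and 1 was higher in both pairs, and the median was -0.10 in set 1 and -0.02 in set 2.

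Matrix genes were among those higher with Dam-LaminB1. VCAN, which encodes the large proteoglycan versican (chr5:82767284-82878122), had 44.6 and 49.9 CPM in VP16_tracer_Dam, against 32.5 and 38.9 CPM in VP16_tracer. All libraries with Dam-LaminB1 lay above those without (log2 change 0.41 ± 0.07, edgeR adjusted p = 0.0166). MMP2, a gelatin- and collagen-degrading metalloproteinase (chr16:55423612-55540603), had 119.6 and 98.2 CPM, against 86.5 and 87.7 CPM, and its pairs differed in size (log2 differences of 0.47 and 0.16; edgeR adjusted p = 0.0342). NOV, a secreted matrix-associated signalling protein also called CCN3 (chr8:120428546-120436593), had 28.8 and 13.6 CPM with Dam-LaminB1, against 20.7 and 7.15 CPM with the tracer alone. NOV overlapped between the groups because its level differed more between the sets than between the groups, and its log2 differences were 0.47 and 0.92 (edgeR adjusted p = 0.0268).

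Of the 36 matrix genes tested, VCAN and MMP2 were called higher and none was called lower, beside 0.031% and 0.0496% of all genes. In both pairs 19 members were higher and 4 were lower, beside 27.6% and 28.7% of all genes. In all 4 pairs of both clones 16 members were higher, and the share of all genes that were so was not computed. The median log2 difference of the list was 0.13 in set 1 and 0.03 in set 2. LOX, which cross-links collagen, lay just outside the threshold (157 and 112 CPM in VP16_tracer_Dam, against 119.8 and 101 CPM in VP16_tracer; edgeR adjusted p = 0.0569). FBN1, a microfibril protein, had log2 differences of 0.24 and 0.14, and the collagen gene COL5A1 had -0.20 and -0.05; neither passed. For a further pair of genes of the matrix the value was set by the library VP16_tracer_Dam 1: MMP1, the interstitial collagenase, had 17.8 and 4.10 CPM in VP16_tracer_Dam, against 3.00 and 3.25 CPM in VP16_tracer, and THBS1, thrombospondin, had 252 and 151 CPM, against 136 and 138 CPM (edgeR adjusted p = 0.675 and 0.706).

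BMF encodes a BH3-only protein that binds and inhibits anti-apoptotic BCL2 proteins. BMF (chr15:40380091-40401093) had 5.83 and 2.88 CPM in VP16_tracer_Dam, against 2.30 and 1.80 CPM in VP16_tracer and 2.61 and 1.76 CPM in VP16_uninduced. Both libraries with Dam-LaminB1 were the highest of the clone (log2 change 1.07 ± 0.195, edgeR adjusted p = 0.0218). In the GFP clone it had 9.16 and 1.24 CPM in GFP_tracer_Dam, against 2.31 and 0.848 CPM in GFP_tracer. KCNJ2, an inward-rectifier potassium channel that sets the resting membrane potential (chr17:68164814-68176160), had 12.3 and 8.81 CPM in VP16_tracer_Dam, against 8.17 and 4.78 CPM in VP16_tracer (log2 change 0.71 ± 0.13, edgeR adjusted p = 0.0268). Its groups did not overlap, by a narrow margin.

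Of the remaining genes called lower, CDK14, a cyclin-dependent kinase of Wnt receptor signalling (chr7:90095738-90839905), had 18.8 and 30.3 CPM in VP16_tracer_Dam, against 29.9 and 37.2 CPM in VP16_tracer. CCDC144NL (chr17:20739760-20799453) had 20.7 and 27.0 CPM, against 32.5 and 33.7 CPM; it belongs to a family of near-identical copies, so its reads are uncertain. AC091969.1, a lincRNA gene spanning 605 kb (chr5:151998525-152603103), had 29.0 and 29.8 CPM, against 38.4 and 36.7 CPM, with tight replicates. CDK14 overlapped between the groups and the other pair of genes did not. Within CDK14, CCDC144NL, MCM5, NOV and VCAN the table places other genes, and whether counting used strand is not stated, so reads of antisense neighbours cannot be told apart.

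**Figure D2:**
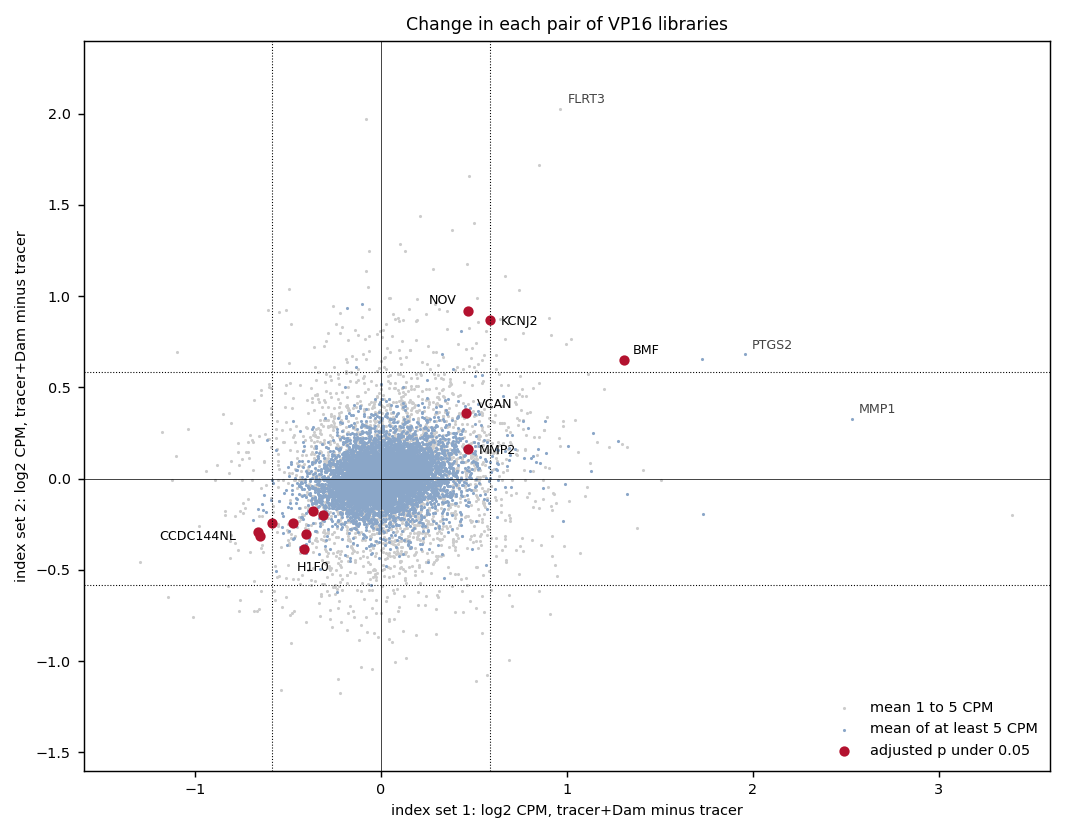
Log2 CPM in tracer+Dam minus tracer for genes with a mean of at least 1 CPM, with index set 1 on the horizontal and index set 2 on the vertical axis; grey points average 1 to 5 CPM, blue points at least 5 CPM, red points are the 13 called genes, and dotted lines mark 1.5-fold. BMF and KCNJ2 lie past 1.5-fold in both sets, whereas MMP1 and PTGS2 lie much farther along set 1 than along set 2.

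Few genes changed by a large amount in both pairs. Of 13615 genes with a mean of at least 1 CPM over the 4 libraries, 18 were at least 1.5-fold higher in both (0.132%) and 9 at least 1.5-fold lower in both (0.0661%), while 8 passed 1.5-fold in opposite directions. No gene was 2-fold changed the same way in both. At a log2 difference of at least 0.322 in both pairs, the counts were 147 higher (1.08%), 73 lower (0.536%) and 113 opposite. Most of the genes past this lower limit were weakly expressed, and among the 10866 genes with at least 5 CPM, 30 were higher, 12 lower and 4 opposite. Across the 13615 genes, which are not independent replicates and share the same 4 libraries, the log2 differences of both pairs had Pearson's r of 0.159 and the same sign in 57.3%. In the GFP clone 20 genes were higher, 14 lower and 22 opposite at 1.5-fold, with r of 0.0644.

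The 18 genes at least 1.5-fold higher in both pairs included several surface and signalling proteins, and none but BMF and KCNJ2 passed the adjusted test. FLRT3, an adhesion receptor of the FLRT family (chr20:14303634-14318262), had 2.83 and 1.35 CPM in VP16_tracer_Dam, against 1.41 and 0.263 CPM in VP16_tracer. PTGS2, the inducible cyclooxygenase that makes prostaglandin precursors (chr1:186640923-186649559), had 11.7 and 4.49 CPM, against 2.96 and 2.77 CPM. AQP3, a water and glycerol channel (chr9:33441152-33447609), had 3.16 and 1.22 CPM, against 1.22 and 0.746 CPM. FLRT3 overlapped between the groups, and the groups of AQP3 were separated only by the last digit.

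MAP6, a microtubule-stabilising protein (chr11:75297963-75380165), had 2.67 and 2.22 CPM in VP16_tracer_Dam, against 1.27 and 1.27 CPM in VP16_tracer. VILL, a villin-like protein (chr3:38029550-38048679), had 2.71 and 2.66 CPM, against 1.41 and 1.405 CPM. NAP1L3, a nucleosome assembly protein family member on the X chromosome (chrX:92925929-92928567), had 4.59 and 3.32 CPM, against 2.39 and 1.89 CPM. The groups did not overlap in these 3 genes, beside 20.1% of all genes tested, and the genes were picked for their change in the same libraries. Replicates lay close together for MAP6 and VILL and farther apart for NAP1L3. The adjusted p was 0.124 for MAP6, 0.144 for VILL and 0.113 for NAP1L3 by edgeR. The others of the 15 ranked highest by their weaker pair were NEFL, RP5-1063M23.2, PCDHGB7, PCDHB5, C12orf55, AKR1C3, PLEKHG4B and GPR84.

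Of the 9 genes at least 1.5-fold lower in both pairs, ESR1 and FOXP2 are protein-coding. ESR1, the estrogen receptor alpha gene (chr6:151977826-152450754), had 0.862 and 0.698 CPM in VP16_tracer_Dam, against 1.60 and 1.10 CPM in VP16_tracer. FOXP2, a transcription factor of neural development (chr7:113726382-114333827), had 1.15 and 1.75 CPM, against 1.88 and 2.94 CPM. Both genes span long stretches of genome, and neither passed the test (edgeR adjusted p = 0.389 and 0.246). The other 7 were the pseudogenes AC125232.1, MORF4L1P1, NCLP1 and RP11-572P18.1 and the non-coding transcripts RP11-893F2.9, HOXB-AS1 and Z83851.3, whose reads can be shared with a parent or overlapping gene.

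Other gene lists held no called gene, and their medians were compared with the median of all genes, which was -0.00 in each pair. Beside the counts of these lists, 27.6% of all genes tested were higher and 28.7% lower in both pairs. Of 40 interferon-stimulated genes, which act in antiviral defence, 23 were higher and 3 lower in both pairs, with medians of 0.12 and 0.12 in sets 1 and 2. In the GFP clone 27 of them were higher and 1 lower in both pairs, with medians of 0.24 and 0.07. OAS1, a sensor of double-stranded RNA, had 39.5 and 4.76 CPM in VP16_tracer_Dam, against 29.3 and 2.68 CPM in VP16_tracer and 13.1 and 2.12 CPM in VP16_uninduced (edgeR adjusted p = 0.0739). The level of OAS1 differed between sets far more than between groups. The interferon-induced GTPase genes GBP2 (24.4 and 15.5 CPM, against 16.9 and 12.1 CPM) and GBP1 (39.1 and 25.7 CPM, against 31.9 and 19.9 CPM) were higher within each pair, with adjusted p of 0.0739 and 0.0968 by edgeR; they were chosen after their values were seen.

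Of 29 targets of p53, 14 were higher and 2 lower in both pairs (medians of 0.13 and 0.02); TP53INP1, a stress-induced pro-death gene, had 61.7 and 26.6 CPM in VP16_tracer_Dam, against 49.1 and 23.1 CPM in VP16_tracer, and CDKN1A, the cell-cycle inhibitor p21, had 487 and 174 CPM, against 446 and 165 CPM. Of 35 ATF4 targets of the integrated stress response, 19 were lower and 1 higher in both pairs, with medians of -0.03 and -0.10. In the GFP clone 7 of them were lower and 10 higher in both pairs, with medians of 0.096 and -0.004. Of the cytosolic ribosomal protein genes, 66 of 77 were lower in both pairs and 1 was higher, with medians of -0.07 in set 1 and -0.04 in set 2, and the fitted median of -0.05 was -0.04 when only total counts were used for scaling. The NF-kB list had medians of opposite sign, 0.34 in set 1 and -0.05 in set 2. Medians of the mitochondrial transcripts, respiratory chain, zinc finger, FK506-binding and hypoxia lists lay within 0.05 of 0 in both pairs. Of these, the respiratory chain list had 19 of 43 genes lower and 7 higher in both pairs. The hypoxia list had 14 of 29 lower and 5 higher. The counts were 111 lower and 132 higher of 430 zinc finger genes, and 4 and 3 of 13 FK506-binding genes. They were 1 and 1 of 12 mitochondrial transcripts.

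**Figure D3:**
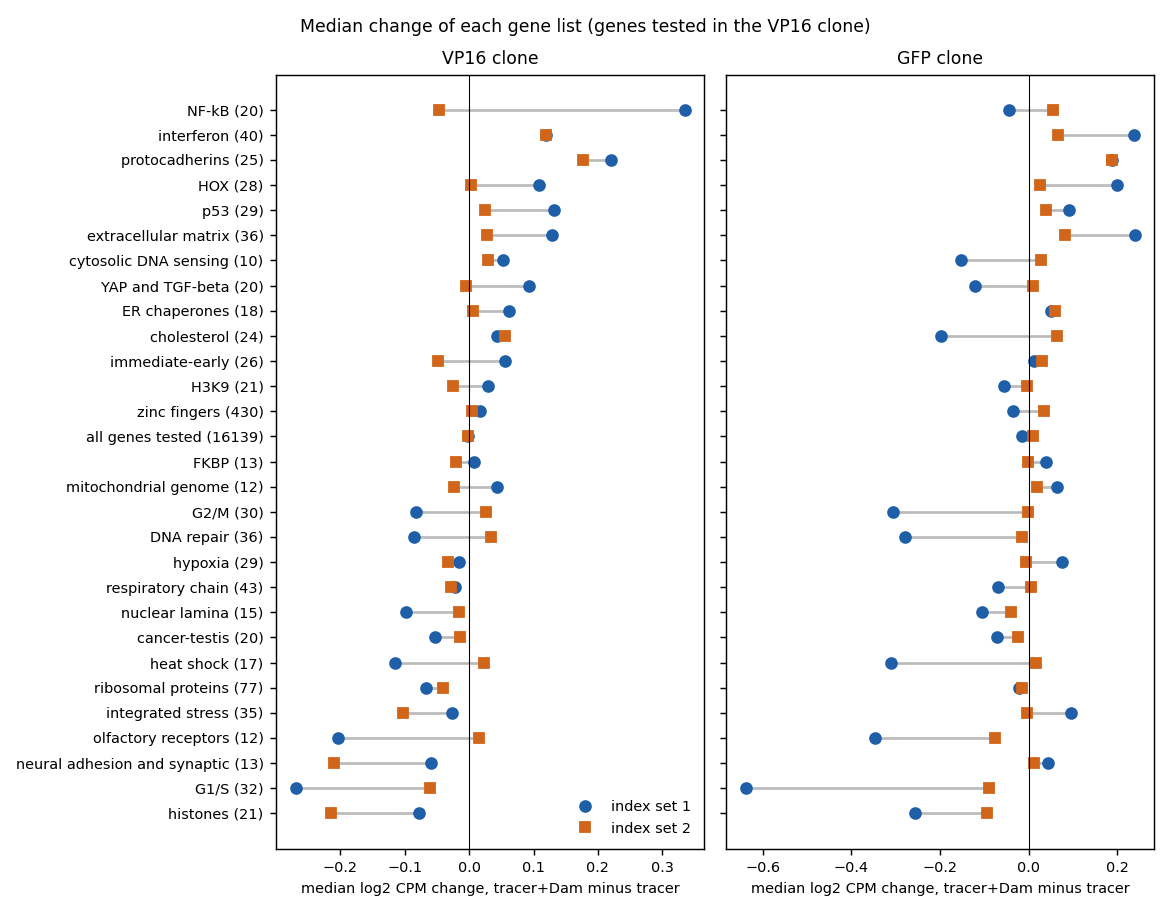
Median log2 CPM difference, tracer+Dam minus tracer, for each list with at least 10 genes tested (number in brackets), in index set 1 (circles) and set 2 (squares), for the VP16 clone on the left and the GFP clone on the right; the horizontal scales differ. The G1/S, histone, ribosomal and neural adhesion lists lie below 0 in both VP16 sets and the interferon, protocadherin, p53 and matrix lists above it.

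Genes that moved the same way lay on nearly all chromosomes. The genes past a log2 difference of 0.322 in both pairs were used for position. They were 146 higher genes, with SURF6P1 on chromosome Y among them, and 72 lower genes, out of 13607 expressed genes with a position. Shares were taken for chromosomes 1 to 22 and X. The share of expressed genes that were higher ran from 0% on chromosomes 18 and 21 to 1.83% on chromosome 11 (14 of 766), with 1.73% on chromosome 5 (11 of 636), 1.68% on chromosome 19 (15 of 891) and 1.66% on chromosome 12 (12 of 724). The share that were lower was largest on chromosome 12 (1.10%, 8 of 724) and was 0% on chromosomes 15 and 21. Chromosome medians over all expressed genes lay between -0.03 and 0.02 in both pairs. With so few genes per chromosome these shares are given as a description.

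**Figure D4:**
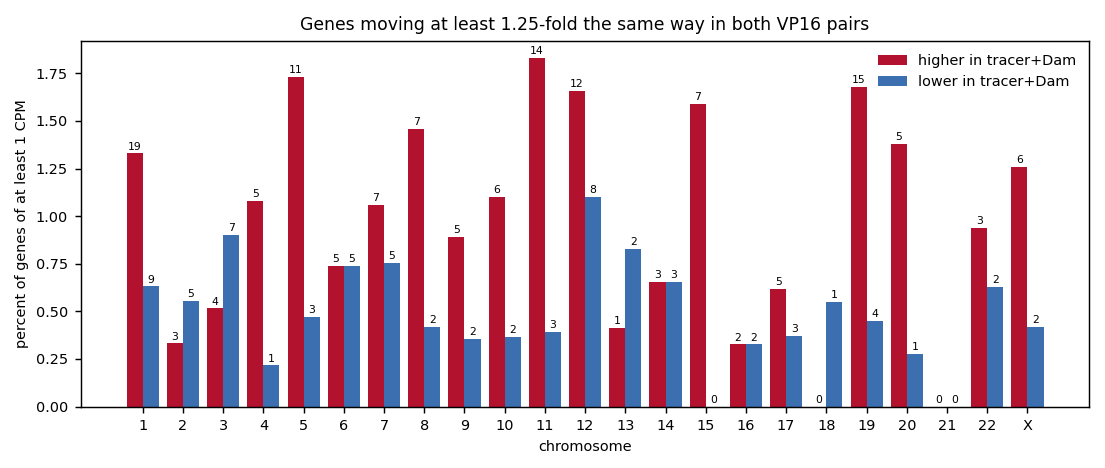
Percent of the expressed genes of each chromosome (mean of at least 1 CPM) that were higher (red) or lower (blue) in tracer+Dam than in tracer by a log2 difference of at least 0.322 in both VP16 pairs; the number above a bar is the count of genes. Higher genes outnumber lower ones on most chromosomes, and chromosome 21, with 139 expressed genes, has neither.

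A gene moving the same way within 1 Mb was found for 31 of the 146 higher genes (21.2%), beside 17.5% of all 13607 genes having a higher gene that close. For the lower genes it was 4 of 72 (5.56%), beside 8.27%. The longest run was on chromosome 5 (chr5:140514800-141349304) and held PCDHB5, PCDHB13, PCDHGB7, PCDHGC5, PCDH1 and PCDH12, protocadherin adhesion genes of the beta and gamma clusters and their neighbours, among 23 expressed genes that start there. PCDHB5 had 3.36 and 1.96 CPM in VP16_tracer_Dam, against 1.64 and 1.14 CPM in VP16_tracer, and PCDH12 had 6.19 and 2.49 CPM, against 4.32 and 1.62 CPM. The gamma genes share their last exons, so their counts are not independent. Over 25 clustered protocadherins tested, 12 were higher and 4 lower in both pairs, beside 27.6% and 28.7% of all genes. None was called (medians of 0.22 and 0.18). In the GFP clone the medians were 0.19 and 0.19.

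A run on chromosome 1 (chr1:150702551-151763892) held CTSS and CTSK, which encode cathepsin proteases, SEMA6C, a semaphorin, and TDRKH, a Tudor-domain protein, among 28 expressed genes. SEMA6C had 12.6 and 6.94 CPM in VP16_tracer_Dam, against 8.59 and 4.65 CPM in VP16_tracer. On chromosome 12 (chr12:54379629-54758271) the run held HOXC5 and HOXC4, homeobox genes, and GPR84, a fatty acid receptor, which had 2.17 and 1.53 CPM, against 1.36 and 0.790 CPM. Members of runs were picked for their change and are given without a test.

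The number of genes of the table that start within 500 kb, a measure of how gene-dense a region is, had a median of 21 for the higher genes, 17 for the lower genes and 21 for all expressed genes. Of the lower genes, 18 of 72 were pseudogenes and 30 were protein-coding (41.7%), whereas 3.90% of all expressed genes were pseudogenes and 88.4% protein-coding. The lower genes had a median span of 6.85 kb, against 29.4 kb for all, and 83.3% of them lay under 5 CPM, against 20.1% of all. Low level was shared by the higher genes, of which 79.5% lay under 5 CPM. Their median span was 21.3 kb, with 7.53% pseudogenes and 80.8% protein-coding genes. Above 5 CPM the picture was different: 5 of the 12 lower genes spanned at least 300 kb, beside 1 of the 30 higher genes and 3.46% of all 10866 genes.

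Those 5 long genes were CHRM3, MDGA2, RBMS3, MECOM and CSMD3. CHRM3, a muscarinic acetylcholine receptor (chr1:239549865-240078750), had 7.02 and 8.90 CPM in VP16_tracer_Dam, against 10.4 and 12.7 CPM in VP16_tracer and 11.8 and 13.1 CPM in VP16_uninduced. Both Dam-LaminB1 libraries were the lowest of the clone, and the gene lay just outside the threshold (log2 change -0.54 ± 0.11, edgeR adjusted p = 0.0521). MDGA2, a neural adhesion protein (chr14:47308826-48144157), had 8.04 and 11.0 CPM, against 10.7 and 14.2 CPM. MECOM, a zinc finger transcription factor (chr3:168801287-169381406), had 7.51 and 10.6 CPM, against 9.86 and 13.5 CPM. CSMD3, a large membrane protein (chr8:113235157-114449328), had 7.84 and 7.29 CPM, against 9.90 and 9.74 CPM, and RBMS3, an RNA-binding protein (chr3:29322473-30051886), had 5.21 and 4.93 CPM, against 7.28 and 6.23 CPM. The groups did not overlap for CHRM3, CSMD3 and RBMS3 and overlapped for MDGA2 and MECOM. Of all genes tested, 20.1% had groups that did not overlap. These 5 genes were picked for being lower in both pairs of the same libraries, which favours such separation. None of the 5 passed the test.

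Split by span after these genes were seen, protein-coding genes of at least 5 CPM that span 300 kb or more (369 genes) had median log2 differences of -0.09 in set 1 and -0.04 in set 2. Of these, 182 were lower in both pairs (49.3%) and 54 higher (14.6%). In the 10 to 30 kb class (2909 genes) the medians were 0.00 in both sets, with 29.8% lower and 30.1% higher in both. More lower than higher genes were also found under 10 kb (32.8% and 26.0%) and at 100 to 300 kb (33.9% and 24.6%). The 30 to 100 kb class had 28.5% lower and 28.4% higher. Among the long genes, RYR2, a calcium release channel (15.3 and 23.21 CPM, against 22.2 and 27.9 CPM), and CACNA2D1, a calcium channel subunit (37.3 and 64.5 CPM, against 49.3 and 73.7 CPM), had adjusted p of 0.0645 and 0.0644 by edgeR. For the 300 kb class the GFP clone gave -0.04 in set 1 and 0.03 in set 2, and the VP16 tracer against uninduced cells, a comparison that shares the tracer libraries, gave 0.05 and 0.01. Long genes tend to lie in gene-poor regions, and genes with fewer than 5 others starting within 500 kb (268 genes) had medians of -0.05 and -0.01.

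**Figure D5:**
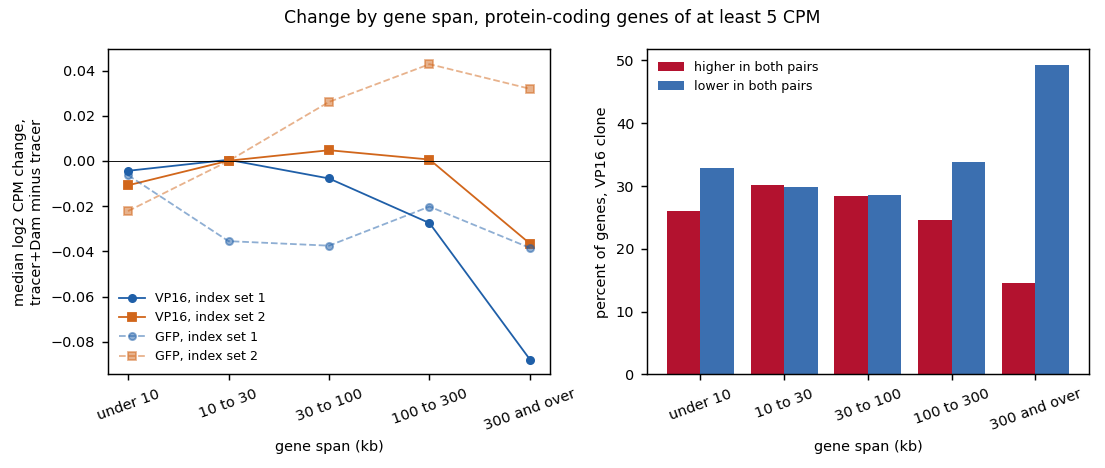
Left, median log2 CPM difference (tracer+Dam minus tracer) by gene span for protein-coding genes of at least 5 CPM, for the VP16 clone (solid) and the GFP clone (dashed) in index sets 1 (circles) and 2 (squares); right, percent of the same genes higher (red) or lower (blue) in both VP16 pairs. The VP16 medians of the class of 300 kb and over are the lowest in both sets, at -0.09 and -0.04, and 49.3% of its genes are lower in both pairs.

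Genes silent in uninduced cells bear on whether transcription appears where there was none. Of the protein-coding genes, 2798 had at most 1 count summed over both VP16_uninduced libraries. Together they took 99.1 and 47.4 CPM, here without scaling for composition, in VP16_tracer_Dam, against 69.9 and 41.9 CPM in VP16_tracer. The exact Poisson 95% intervals, which cover counting error only, were 95.1 to 103 and 44.6 to 50.3 with Dam-LaminB1, against 66.4 to 73.6 and 39.3 to 44.7 with the tracer. The ratio was 1.42 in set 1 and 1.13 in set 2; with no count allowed in uninduced cells it was 1.52 and 1.15. With up to 5 counts allowed (4151 genes) the level was 270 and 153 CPM with Dam-LaminB1, against 216 and 135 CPM, and the mean ratio over the sets was 1.19, where it was 1.27 with at most 1 count. Genes with at least 3 counts numbered 246 and 79, against 126 and 68. With 2 libraries in a group the smallest 2-sided p of an exact permutation test is 0.333, and none was computed.

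Of these silent genes, 30 had at least 3 counts in both VP16_tracer_Dam libraries and 21 had them in both VP16_tracer libraries, with 7 genes in both sets of genes. Relative to library size, 19 of the 30 were higher with Dam-LaminB1 in both index sets and none was lower in both, whereas of the 21 none was higher and 9 were lower in both, so the direction follows the group in which the genes were detected. ADRA2A, an adrenergic receptor (chr10:112836790-112840658), had 24 and 4 counts in VP16_tracer_Dam, against 3 and 0 counts in VP16_tracer and none in VP16_uninduced. BEX5, a small neural protein on the X chromosome, had 12 and 5 counts, against 4 and 2 counts, and SLITRK6, a neuronal transmembrane protein, had 10 and 6 counts, against 2 and 3 counts. Others among the 30 did not differ in this way: RASAL3 had 3 and 3 counts, against 7 and 3 counts, and PTPRO had 5 and 5 counts, against 7 and 3 counts. Each of these counts is a few reads. Genes silent in GFP_uninduced, chosen in the same way (2321 genes), took 118 and 29.8 CPM in GFP_tracer_Dam, against 104 and 27.0 CPM in GFP_tracer.

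Markers of cell types and measures of RNA composition were set beside these results. VIM, the mesenchymal filament vimentin, had 3620 and 3602 CPM in VP16_tracer_Dam, against 3958 and 3672 CPM in VP16_tracer, while 4 of 8 fibroblast markers stayed under 1 CPM and FAP had no count. Of the markers of other cell types, 4 of 6 epithelial, 5 of 6 blood and 2 of 6 neural genes stayed under 1 CPM in all 4 libraries; the exceptions were KRT8 and KRT18, keratins also made by many tumour lines, CD68, and the neural genes TUBB3, MAP2, SYP and NEFL. NEFL, a neurofilament gene and one of the 18 genes past 1.5-fold in both pairs, had 4.47 and 0.785 CPM in VP16_tracer_Dam, against 2.44 and 0.176 CPM in VP16_tracer (edgeR adjusted p = 0.113). The 6 neural markers summed to 9.72 and 6.15 CPM with Dam-LaminB1, against 8.07 and 4.96 CPM, and their part in the results was not tested. Mitochondrial transcripts made up 3.99% and 3.40% of counts with Dam-LaminB1, against 3.84% and 3.41%. The number of genes with a count was 27054 and 25693 with Dam-LaminB1, against 26117 and 25499, and its part in the silent-gene counts was not tested.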

How the data were processed

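RNA from HT1080 clones was extracted with Trizol and made into Illumina TruSeq RNA libraries, per the labels' protocols. The submitters' processing notes name TopHat 1.4.0, Bowtie 0.12.7, HTSeq and the build GRCh37, and no source used here states the strand setting or overlap mode. The deposited values are raw counts of reads for 36502 Ensembl genes, of which 59 had no annotation and took at most 0.00317% of a library. All 12 libraries held 18774905 to 24827396 counts.

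The main test was edgeR 4.0.16 (R 4.3.3): filterByExpr, TMM scaling, a robust quasi-likelihood fit of the 6 VP16 libraries with group and index set, Benjamini-Hochberg adjustment at 0.05. A standard error was the absolute log2 change divided by the square root of F. Log2 differences of pairs used CPM with a prior count of 2. The index sets come from titles that reuse 6 indexes in 2 sets, and deviations from group means correlated at 0.701, 0.672 and 0.689 within sets over 16139 genes, so the sets were taken to pair the libraries. DESeq2 1.42.0 and limma 3.58.1 gave alternatives. The test was run on simulated data first.

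Named genes were called genes, up to 15 per direction at least 1.5-fold the same way in both pairs (at least 1 CPM), up to 4 members of a list by p, LMNB1 and FKBP1A; others, such as GBP1, RYR2, the members of runs, the silent genes and the matrix genes MMP1, THBS1 and COL5A1, were chosen after their values were seen. The members, gene lists and tests were all chosen with earlier results of these data known, so counts of lists are descriptions. Promoters came from RefSeq (GRCh38.p14).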

Additional observations from a re-analysis of the deposited data

Results flagged for a closer look

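For 7 genes both VP16 pairs moved one way and both GFP pairs the opposite way; the rule was applied to named genes, and a difference of this kind between single genes was not shown by the test. Given as the fitted VP16 minus GFP difference in log2 change, they were FLRT3 (1.94), MAP6 (1.30), VILL (1.22) and RP5-1063M23.2 (1.18), higher with Dam-LaminB1 in the VP16 clone and lower in the GFP clone, and RP11-572P18.1 (-1.67), ESR1 (-1.48) and MORF4L1P1 (-0.84), lower in the VP16 clone and higher in the GFP clone. The test of the difference over all genes (edgeR, 12 libraries) gave an adjusted p of 1 for each. FLRT3 had 0.733 and 0.514 CPM in GFP_tracer_Dam, against 1.03 and 0.754 CPM in GFP_tracer, and ESR1 had 0.692 and 0.642 CPM in GFP_tracer_Dam, against 0.492 and 0.330 CPM in GFP_tracer. All 7 averaged under 3 CPM in the VP16 libraries compared.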

How the results depend on the processing

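All 13 called genes kept their direction under every alternative run. They moved the same way in both pairs and the alternatives reused the same libraries, so this could hardly turn out otherwise. The count of 13 genes (5 higher, 8 lower) changed with the setting. It was 13 with RLE scaling, 14 with total counts only, 12 with a filter of 1 CPM, 12 with limma-voom and 18 (9 higher) without robust dispersions. It was 38 (22 higher, 16 lower) with a filter of 10 counts in all, 2 (0 higher, 2 lower) with DESeq2, of which 1 was among the 13, and 257 (161 higher, 96 lower) with the 4 libraries compared alone. It was 1 (0 higher, 1 lower) with 10 libraries, leaving out the outlying GFP pair. The index-set pairing mattered: without the block the 6 libraries gave 0 calls (99 genes at an unadjusted p under 0.05), and the 12 libraries gave 0 calls with the replicate block and 0 without it (195 and 53 genes). Leaving out 1 library gave 1 to 1022 calls (0 to 576 higher, 1 to 446 lower); the lone library of a group is then assumed to vary like the others. The count was 257 without VP16_uninduced 1 (164 higher, 93 lower), 243 without VP16_uninduced 2 (149 higher, 94 lower), 12 without VP16_tracer 1 (8 higher, 4 lower), 107 without VP16_tracer 2 (78 higher, 29 lower), 1 without VP16_tracer_Dam 1 and 1022 without VP16_tracer_Dam 2. The cause was not tested.

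Genes moving the same way in both pairs numbered 18 higher and 9 lower at 1.5-fold, 147 and 73 at a log2 difference of 0.322, 0 and 0 at 2-fold, 3 and 0 at 5 CPM, and 164 and 105 at 0.2 CPM. The clone difference gave 1 call, MIR663B, with 10 libraries, and 0 when any 1 of the 8 tracer and tracer_Dam libraries was left out; leaving out an uninduced library was not run for it. The GFP clone gave 0 to 166 calls when 1 library was left out (14 without GFP_uninduced 1, 1 without GFP_tracer 1, 166 without GFP_uninduced 2). Called genes in the lists fell to 0 with 12 libraries. The log2 change of FKBP1A, which did not pass the test, changed sign from its fitted value of -0.00: it was 0.0137 with total counts only, 0.000316 with a filter of 10 counts, 0.0240 without VP16_tracer 1 and 0.0247 without VP16_tracer_Dam 1.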
